A study of Arabidopsis thaliana with 8 samples.

Results

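The AWPM-19-like genes of Arabidopsis thaliana encode a small family of membrane proteins. Of 4 listed genes, AT1G04560, AT1G29520 and AT5G18970 each had 1 probe set that the platform annotation assigns to that gene alone, and AT5G46530 had none and was left out. The 3 measured genes stand among 12849 genes with a probe set of their own. AT1G04560 was taken as the main member with its response to abscisic acid (ABA) already known from the same arrays, so its ABA values carry no independent support.

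Total RNA of whole germinating seedlings was hybridised to 1-colour arrays, 1 array per sample, and the 8 arrays formed 4 groups of 2. The ahg1-1 and ahg3-1 seedlings, labelled as ABA-hypersensitive mutants with mutations in related but separate PP2C phosphatase genes, and Columbia wild-type seedlings were germinated on 0.5 uM ABA. A further wild-type group, the only one without ABA, was germinated on the same MS medium with 2% sucrose. All seeds spent 4 days at 4 °C and then 2 days at 23 °C with 16 h of light and 8 h of dark. No mutant was sampled without ABA, so an effect of a mutation outside ABA treatment was not measured. AHG1 and AHG3 had no probe set of their own here, and the mutant labels were not checked against them.

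ABA is the plant hormone that keeps ripe seeds dormant, arrests germination and sets off the protection of cells against drying. The AWPM-19 family is named after a plasma membrane polypeptide that ABA induces in cultured wheat cells. In rice, a family member carries ABA into cells, and in wheat, PM19 genes of the family lie at a locus for grain dormancy. Phosphatases of the PP2C class restrain ABA signalling, and their loss makes seeds more sensitive to the hormone.

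Array medians lay between 5.91 and 5.97 on the log2 scale, and 0 pairs of arrays were identical. The labels do not state whether the 2 arrays of a group stem from separate cultures. P-values therefore rest on a spread between arrays that may be technical, and precision is limited by the small number of arrays. The labels' free-text descriptions repeat the untreated wild type for all 8 samples, and the groups were taken from the titles instead. In whole seedlings, fewer cells of a type and less RNA per cell cannot be told apart. Each difference below is the limma estimate from all 8 arrays, with p-values adjusted over all 22246 probe sets by the Benjamini-Hochberg method and a threshold of 0.05.

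AT1G04560 gave a bright signal on every array with ABA and a dim one on both arrays without it. Its log2 values were 12.73 and 12.89 in ahg1-1 seedlings on ABA and 12.57 and 12.46 in ahg3-1 seedlings on ABA. Wild-type seedlings had 12.04 and 12.51 on ABA, against 5.27 and 5.66 without ABA. The 6 arrays with ABA thus lay within 0.86 of each other, and all of them lay far above the 2 arrays without ABA. Wild-type arrays with ABA stood above those without it for 18.4% of all probe sets.

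With ABA the probe set of AT1G04560 was brighter than 99.4% to 99.9% of all probe sets on the same array. Without ABA it was brighter than 36.7% and 44.6% of them, below the array's median both times. The deposited values hold no detection calls, so it was not tested whether the values without ABA lie above background, and the fold given next carries that limit.

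**Figure D1:**
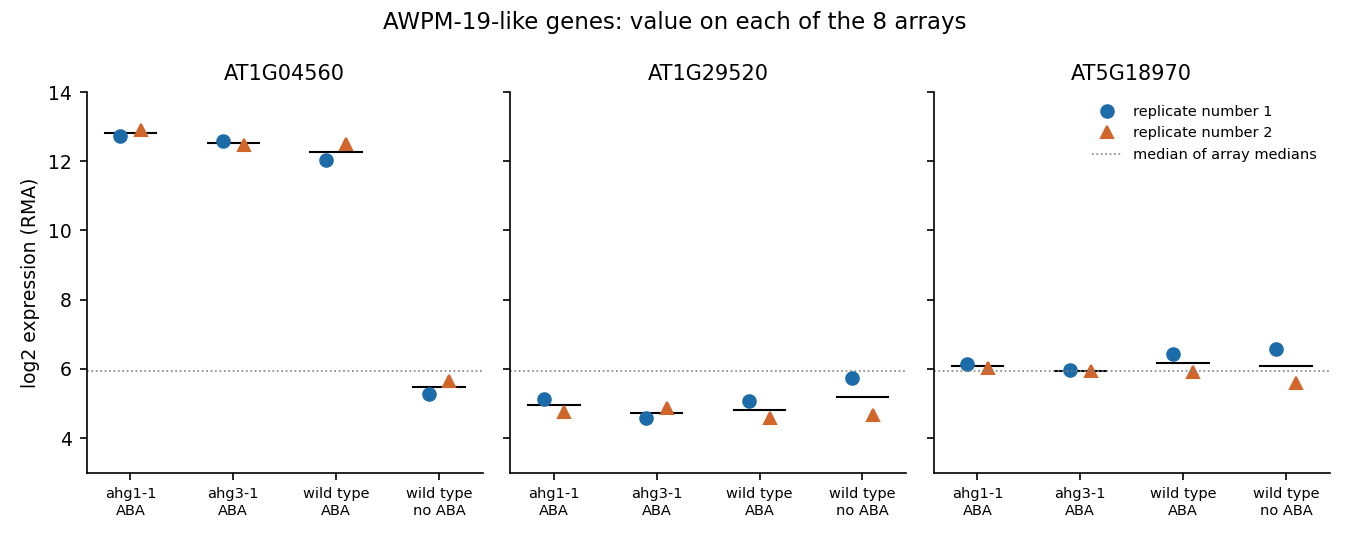
The log2 expression of AT1G04560, AT1G29520 and AT5G18970 (vertical axis, RMA values) is plotted for each array of ahg1-1, ahg3-1 and wild type on ABA and of wild type without ABA. Circles are replicate number 1, triangles number 2, short bars group means and the dotted line the median of the array medians. AT1G04560 sits between 12.04 and 12.89 on the 6 arrays with ABA and at 5.27 and 5.66 without it, while the other genes stay between 4.57 and 6.58 on all arrays.

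In wild type, AT1G04560 averaged 12.27 ± 0.34 with ABA and 5.47 ± 0.28 without ABA (log2, SD, n = 2 each). It rose with ABA by 6.80 ± 0.24 (SE) on the log2 scale, with a 95% interval of 6.22 to 7.39, which is 112-fold (limma, adjusted p = 0.00042). The difference was 6.76 between the arrays numbered 1 and 6.85 between those numbered 2. It was the 4th largest of 22246 differences in size and the 2nd smallest p-value. In this comparison 0.692% of all probe sets passed as higher. Leaving out any 1 of the 8 arrays gave a rise between 6.57 and 7.04, called each time (limma, adjusted p between 0.0011 and 0.010).

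The other measured members had no such difference. AT1G29520 had 5.06 and 4.58 in wild type with ABA, against 5.73 and 4.66 without ABA. AT5G18970 had 6.43 and 5.90 in wild type with ABA, against 6.58 and 5.58 without ABA. For both genes the values with ABA overlapped those without it. Without detection calls, it was not tested whether the values of these genes lie above background on any array.

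AT1G29520 differed by -0.38 ± 0.38 (SE) between wild type with and without ABA, with a 95% interval from -1.30 to 0.54 (limma, adjusted p = 0.87). AT5G18970 differed by 0.09 ± 0.35, with an interval from -0.75 to 0.93 (limma, adjusted p = 0.99). As ratios of ABA to no ABA, these intervals run from 0.407 to 1.45 for AT1G29520 and from 0.593 to 1.90 for AT5G18970. Changes within these intervals remain possible on these arrays. So 1 of the 3 measured members was called with ABA, where 1.37% of all probe sets were called in either direction.

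The gap between the members' ABA differences was also taken array by array. The change of AT1G04560 exceeded that of AT1G29520 by 7.18 (7.44 within number 1 and 6.93 within number 2). It exceeded that of AT5G18970 by 6.72 (6.91 within number 1 and 6.52 within number 2). An exact two-sided permutation test of 2 against 2 arrays gave p = 0.33 in both cases, the smallest value that this design allows.

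**Figure D2:**
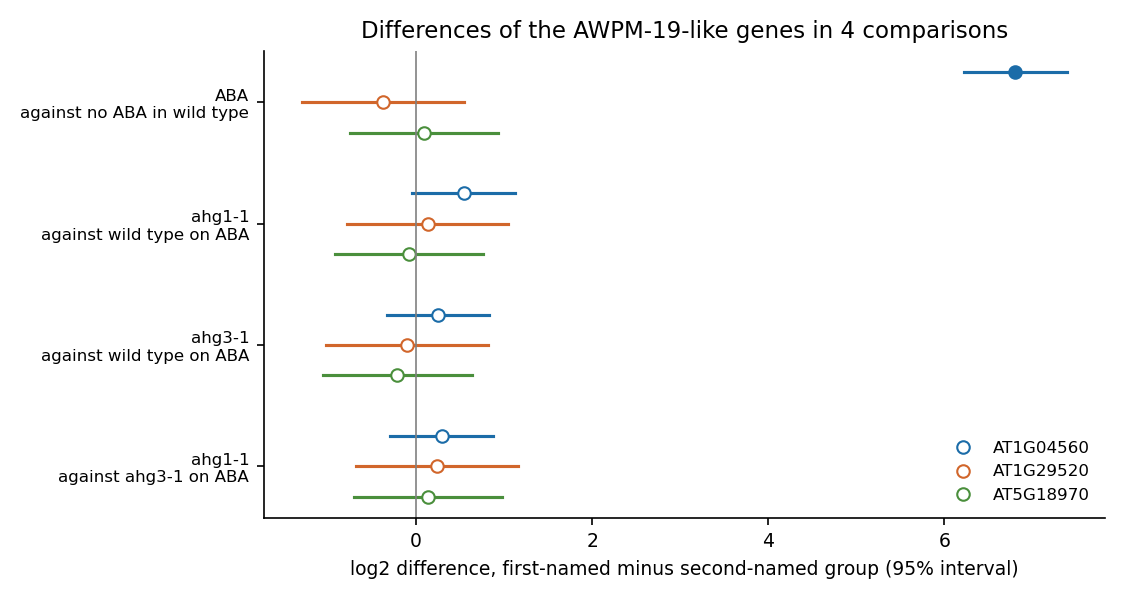
The log2 difference of each AWPM-19-like gene (horizontal axis, first-named minus second-named group) is drawn for the 4 comparisons, with its 95% interval from limma. A filled circle passed the adjusted threshold and an open one did not. The ABA difference of AT1G04560, 6.80, stands alone to the right, and the intervals of the other 11 differences include 0.

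The mutants were then set against wild type on the same ABA medium. In ahg1-1, AT1G04560 averaged 12.81 ± 0.12, against 12.27 ± 0.34 in wild type on ABA (SD, n = 2 each). Both ahg1-1 arrays lay above both wild-type arrays, as did the arrays for 11% of all probe sets in this comparison. The difference of 0.54 ± 0.24 (SE) had a 95% interval from -0.04 to 1.12 and did not pass (limma, adjusted p = 1.0). Here 0% of all probe sets passed, and 1.47% lay below an unadjusted p of 0.05. AT1G04560 was not among the latter, at an unadjusted p of 0.065 (limma).

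In ahg3-1, AT1G04560 averaged 12.52 ± 0.08 (SD, n = 2). Its difference to wild type on ABA was 0.25 ± 0.24 (SE), with an interval from -0.34 to 0.83 (limma, adjusted p = 1.0). The values of these groups overlapped. Here too 0% of all probe sets passed, and 0.0809% lay below an unadjusted p of 0.05. Both mutant differences share the wild-type arrays on ABA, of which number 1 was the lowest of the 6 arrays with ABA. Without that array the difference was 0.30 for ahg1-1 and 0.01 for ahg3-1, and without number 2 it was 0.78 and 0.48.

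The wild-type array number 1 on ABA also stood apart in lists of other genes. The 7 measured photosynthesis genes of green seedlings averaged 7.27 and 6.42 in ahg1-1 and 7.70 and 7.10 in ahg3-1 (mean log2 per array), against 9.53 on this array and 7.53 on number 2 of wild type on ABA. A list of seed maturation genes was drawn up as the seed's response to ABA. Its 23 measured genes averaged 10.61 and 11.42 in ahg1-1 and 10.59 and 10.83 in ahg3-1, against 9.46 and 10.70 in wild type on ABA. The 3 measured endosperm genes averaged 7.07 and 8.23 in ahg1-1 and 6.24 and 6.78 in ahg3-1, against 5.60 and 6.75 in wild type on ABA. Wild-type number 1 was the lowest of the 6 arrays with ABA for the seed maturation and endosperm lists and the highest for photosynthesis genes. It was also the highest for the 2 measured root hair genes, with 7.55 and 5.38 in ahg1-1 and 6.28 and 5.23 in ahg3-1, against 8.42 and 5.48 in wild type on ABA. For the 2 measured seed coat genes it was the highest as well, with 5.95 and 5.43 in ahg1-1 and 6.14 and 5.51 in ahg3-1, against 6.93 and 5.56 in wild type on ABA. Of these genes, DFR had 7.64 on wild-type number 1, while BAN had 6.23, close to its 6.21 in ahg3-1 number 1. The part of the stage of germination or of other tissues in the differences of AT1G04560 was not tested.

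Directly compared, AT1G04560 was 0.29 ± 0.24 higher in value in ahg1-1 than in ahg3-1, with an interval from -0.29 to 0.87 (limma, adjusted p = 1.0). The ahg1-1 arrays lay above the ahg3-1 arrays, as for 11.3% of all probe sets. Here 0% of all probe sets passed, and 0.414% lay below an unadjusted p of 0.05. From high to low, the group means thus ran from ahg1-1 on ABA through ahg3-1 on ABA and wild type on ABA to wild type without ABA. Only the last step, from wild type on ABA to wild type without it, passed a test. The differences between the 3 groups on ABA were each at most 0.54, and their 95% intervals reach up to 2.18-fold. On ABA the probe set was among the brightest of each array, and it was not tested whether differences are compressed there.

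AT1G29520 had 5.13 and 4.77 in ahg1-1 and 4.57 and 4.86 in ahg3-1, beside 5.06 and 4.58 in wild type on ABA. Its differences from wild type were 0.13 ± 0.38 for ahg1-1 and -0.10 ± 0.38 for ahg3-1 (SE), and the groups overlapped. It was 0.24 ± 0.38 higher in value in ahg1-1 than in ahg3-1, with overlap as well. None of these passed (limma, adjusted p = 1.0 for each).

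AT5G18970 had 6.14 and 6.04 in ahg1-1 and 5.98 and 5.93 in ahg3-1, beside 6.43 and 5.90 in wild type on ABA. Its differences from wild type were -0.08 ± 0.35 for ahg1-1 and -0.21 ± 0.35 for ahg3-1, with overlap. Between the mutants it differed by 0.13 ± 0.35, and here the ahg1-1 arrays lay just above the ahg3-1 arrays, as for 11.3% of all probe sets. None of these passed either (limma, adjusted p = 1.0 for each).

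Arrays of a group also differed by replicate number in AT1G29520 and AT5G18970. AT5G18970 was higher on number 1 than on number 2 in all 4 groups, and AT1G29520 in 3 of 4. AT1G04560 was higher on number 1 in 1 of 4 groups. Within groups, the residual SD was 0.45 for AT1G29520 and 0.40 for AT5G18970, against 0.23 for AT1G04560 and a median of 0.28 over all probe sets. AT1G29520 lay below the array's median on all 8 arrays and AT5G18970 on 3 of them.

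Other membrane protein families were read from lists of their genes, of which only some are known for ABA, cold or salt responses. The RCI2/PMP3 family consists of very small hydrophobic proteins of the plasma membrane, some of which are induced by cold, salt or ABA. With ABA, 3 of the 5 genes measured rose, 2 did not pass and 0 fell, where 0.692% of all probe sets passed as higher. The median difference over the 5 was 2.36, against 0.05 over all probe sets.

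AT2G38905 of this family had 11.42 and 11.05 in wild type with ABA, against 6.42 and 6.58 without ABA. It rose by 4.73 ± 0.29 (SE), or 26.6-fold (limma, adjusted p = 0.0019), and was called whichever array was left out. On ABA it had 12.22 and 12.20 in ahg1-1 and 11.91 and 11.14 in ahg3-1. Its ahg1-1 values lay above the wild-type ones, as for 11% of all probe sets, by 0.97 ± 0.29 (limma, adjusted p = 1.0).

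AT4G30650 had 10.64 and 10.55 in wild type with ABA, against 6.30 and 7.47 without ABA, and rose by 3.71 ± 0.42 (limma, adjusted p = 0.014). This call was lost without wild type on ABA number 2, at 3.75 (limma, adjusted p = 0.075), and without wild type on no ABA number 1, at 3.12 (limma, adjusted p = 0.056). AT4G30660 had 10.67 and 10.56 in wild type with ABA, against 7.92 and 8.59 without ABA, and rose by 2.36 ± 0.32 (limma, adjusted p = 0.027). Its call was lost in each of the 8 fits without 1 array, with differences between 2.03 and 2.70 (limma, adjusted p between 0.053 and 0.13).

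The other RCI2/PMP3 genes stayed near 0: AT2G24040 differed by 0.06 ± 0.56 and AT1G57550 by 0.02 ± 0.33. Their values with and without ABA overlapped, as did those of AT1G29520 and AT5G18970. The genes of both families thus fell into some with a difference of over 2 on the log2 scale and some whose intervals include 0, and the differences of AT1G04560 and AT2G38905 were called in all 14 alternative fits.

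Of the listed ABA transport genes, whose products move ABA across membranes or were proposed to, 0 of 6 measured passed with ABA by limma. Over all probe sets 1.37% passed in this comparison. Of the 6 genes, 1 lay below an unadjusted p of 0.05 (limma), as did 2846 of all 22246 probe sets. The median difference of the 6 was 0.01. NPF4.1 (AT3G25260), an importer gene of the NPF family, had the smallest p. It had 6.79 and 6.42 in wild type with ABA, against 6.12 and 5.58 without ABA, a difference of 0.75 ± 0.28 (limma, adjusted p = 0.31). DTX50 (AT5G52050), an ABA exporter gene, differed by -0.13 ± 0.40.

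Among HVA22 genes, named after an ABA-induced barley gene, 0 of 2 measured passed, with the smaller p at AT5G42560 (0.22 ± 0.35; limma, adjusted p = 0.95). Among COR413 genes, which encode cold-regulated proteins with several membrane spans, 0 of 2 passed, with the smaller p at AT4G37220 (-0.08 ± 0.55; limma, adjusted p = 0.99). Over all probe sets 1.37% passed, so 0 calls among so few genes does not set these lists apart. The measured shares of these lists were 6 of 12, 2 of 11 and 2 of 6, and 5 of 8 for RCI2/PMP3, so they do not describe the families as wholes. A list of 22 aquaporin genes had 0 measured members. In the mutant comparisons, 0 genes of these membrane protein lists passed by limma, where 0% of all probe sets did. AT2G38905 in ahg1-1 was the only listed gene below an unadjusted p of 0.05 (limma). For ahg1-1, 1.47% of all probe sets lay below it.

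**Figure D3:**
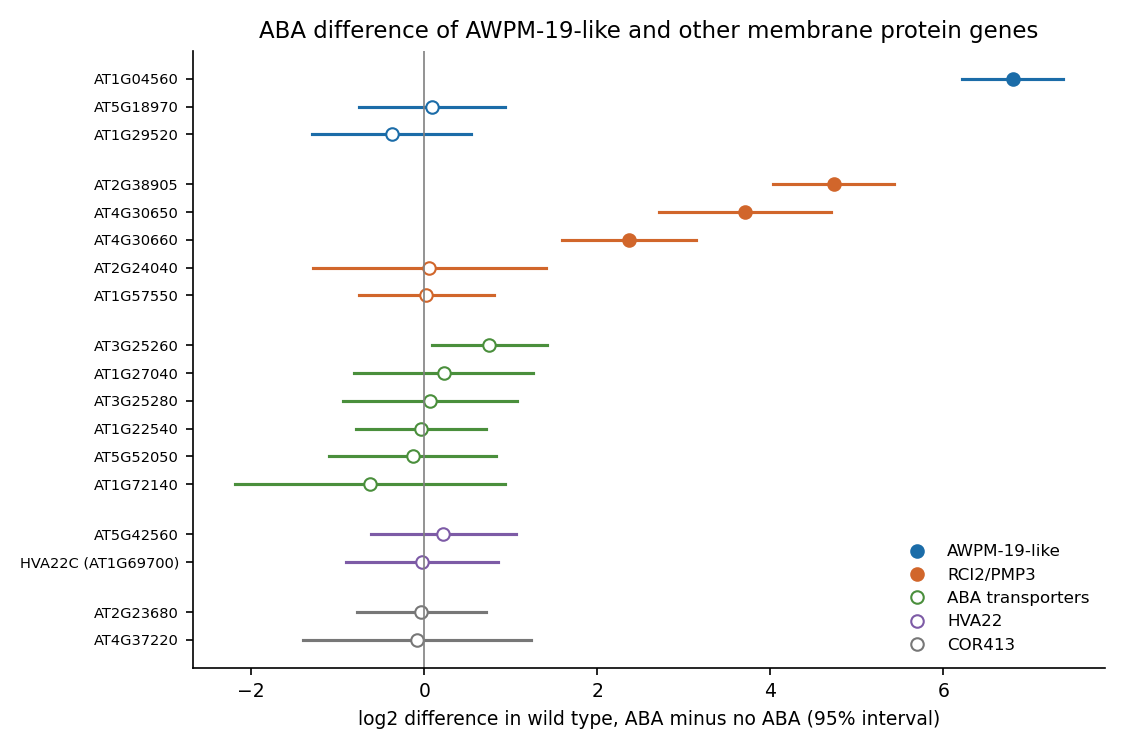
Log2 differences in wild type, ABA minus no ABA (horizontal axis, 95% intervals from limma), are shown for each measured gene of the AWPM-19-like family and of 4 other membrane protein lists, coloured by list. Filled circles passed the adjusted threshold and open ones did not. AT1G04560 and 3 RCI2/PMP3 genes lie between 2.36 and 6.80, and the other 14 genes have open circles.

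Genes with a pattern like that of AT1G04560 were ranked by Pearson's r over the 8 arrays among 12997 other probe sets with 1 gene. This r mostly sets the 2 arrays without ABA apart from the 6 with it and is given as a description. The closest was AT3G54940, a papain-type cysteine protease gene, at r = 0.9989. It had 12.18 and 12.71 in ahg1-1 and 12.32 and 12.31 in ahg3-1 on ABA, and in wild type 11.56 and 12.28 with ABA, against 5.51 and 5.81 without ABA. Next came OLEO3 (AT5G51210), whose oleosin coats oil bodies, at 0.9973, and AT5G04000 at 0.9971.

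LEA4-5 (AT5G06760), a late embryogenesis abundant (LEA) protein that protects drying cells, had r = 0.9968. AT3G01570, an oleosin-type gene, had 0.9955, the LEA gene AT3G17520 had 0.9953, AT3G19920 had 0.9941 and AT5G20950 had 0.9940. Their ABA differences in wild type ran from 1.25 for AT5G20950 to 6.67 for AT3G17520. In all, 16 probe sets had an r of at least 0.99.

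By distance between the centred values, which also takes the size of the change into account, 4 of these 8 remained among the nearest 8: AT3G54940, AT3G17520, AT3G01570 and LEA4-5. The others of the nearest 8 were AT2G28490, a vicilin-like storage protein gene, AT1G72100, the LEA gene AT4G21020 and AT2G21490, which the gene table names LEA. Over the 6 arrays with ABA alone, 0 of the 8 remained, and the closest was AT1G76010 (r = 0.988). Among those 6 arrays AT1G04560 itself spanned only 0.86, so that order rests on small differences. The other AWPM-19-like genes had r = -0.47 for AT1G29520 and r = -0.07 for AT5G18970 over 8 arrays, and AT2G38905 of RCI2/PMP3 had 0.989.

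**Figure D4:**
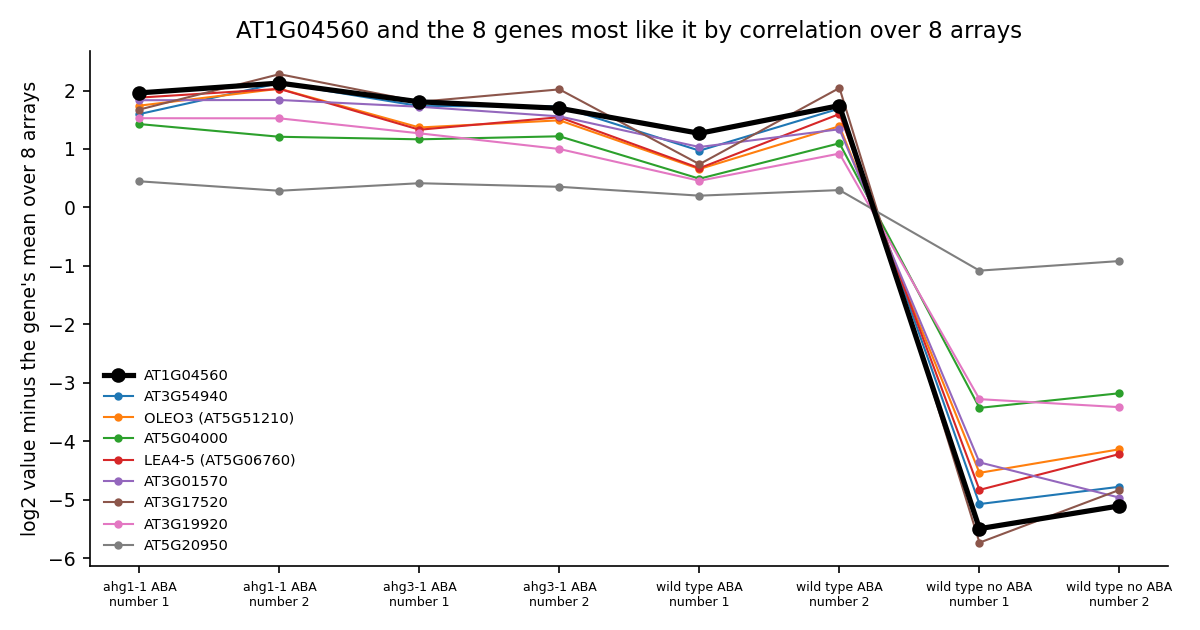
Log2 values of AT1G04560 (thick black line) and of the 8 genes with the highest r to it are plotted array by array, each minus its own mean over the 8 arrays (vertical axis). Lines join arrays only to guide the eye. All 9 genes drop on the arrays without ABA, and on ABA all 9 are lowest on wild-type number 1.

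Of the 8 genes closest by r, 5 belong to the list of seed maturation genes: AT3G54940, OLEO3, LEA4-5, AT3G01570 and AT3G17520. The list's 23 measured members were among the 12997 probe sets ranked. That list holds LEA, storage, oil body and related genes of the ripening seed, drawn up as the seed's response to ABA. Many of them were already known to respond on these arrays, and this r mostly follows ABA. Neither the overlap with the 8 genes nor the direction of the list is therefore independent evidence. Of its 23 measured members (of 46), 19 rose with ABA, 0 fell and 4 did not pass, with a median difference of 5.72, where 0.692% of all probe sets passed as higher. AT2G28490 (6.73 ± 0.50), AT3G17520 (6.67 ± 0.50) and LEA18 (AT2G35300; 6.31 ± 0.93) had the largest rises (SE; limma, adjusted p = 0.0036, 0.0036 and 0.033). The difference of AT1G04560, 6.80, lay above those of all 23, though by less than the SE of the highest of them.

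The count of 19 depended on which array was left out, as did the number of calls over all probe sets. It was 21 with the replicate number as a block and 7 with only the 4 wild-type arrays. Over all probe sets these fits gave 2799 and 33 calls. Whether the list's count changed more than the calls over all probe sets was not tested. In the mutants 0 of the 23 passed by limma, where 0% of all probe sets did. For ahg1-1, 5 lay below an unadjusted p of 0.05 (limma), as did 1.47% of all probe sets. For ahg3-1 it was 0, beside 0.0809% of all probe sets. The list's median difference from wild type on ABA was 0.82 for ahg1-1 and 0.53 for ahg3-1, beside 0.54 and 0.25 for AT1G04560.

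The 7 measured photosynthesis genes of green seedlings ran the other way, with differences from -4.74 to -1.66. Of these, 6 had the same direction within both replicate numbers. With ABA, PSAN, PRK and ATPC1 of 7 measured photosynthesis genes (of 34 listed) fell and 4 did not pass, where 0.679% of all probe sets passed as lower. Their mean log2 level was 9.53 and 7.53 in wild type with ABA, against 11.77 and 11.63 without ABA. PDF2.1 (AT2G02120), 1 of 3 measured endosperm genes, rose by 1.77 ± 0.29 (limma, adjusted p = 0.047), close to the threshold. The other 2 did not pass and went in different directions, with 1.99 ± 1.30 and -0.14 ± 0.18 (SE). Over all probe sets 0.692% passed as higher. Of root hair and of seed coat genes, 2 each were measured and 0 passed by limma. Below an unadjusted p of 0.05 (limma) lay 0 for root hair and 1 for seed coat, beside 2846 of all 22246 probe sets. The levels of AT1G04560, of 19 seed maturation genes and of 3 photosynthesis genes therefore differed together between wild type with and without ABA. All seedlings were collected after the same time, and ABA delays germination. The stage of germination and the treatment cannot be told apart in this comparison.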

How the data were processed

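Per the submitters' processing notes, the authors made the deposited log2 expression values with RMA (background correction, quantile normalization and probe summary), version not given in the sources used here. There were 22246 probe sets on 8 arrays and 0 unused columns. Probe sets were matched through gene identifiers to the TAIR10.1 gene table: 13072 had 1 gene (12998 found), 503 several and 8671 are unnamed here. Roles of genes are background knowledge, since the annotation gives identifiers only.

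All 8 arrays were fitted with 4 group means in limma 3.58.1 (R 4.3.3), without a filter and with 4 residual degrees of freedom. The procedure was tested on simulated data whose arrays varied independently. Same-numbered arrays here deviated together, which the simulation did not include. The 3 members gave 12 tests. The members, lists and tests were chosen with earlier results of these data known. Named genes are the members, up to 3 called genes per list with the largest change (otherwise the one with the smallest p), and the 8 genes most like AT1G04560. DTX50 and the uncalled RCI2/PMP3 genes were named after their values were seen, and the mutant comparisons name only members and AT2G38905. Differences within a replicate number compare 1 array with 1 other and have no test. Alternatives were a replicate block, fewer arrays, a dim filter (highest value below 5.94), cyclic loess, median centring, trended and robust moderation, and leaving out each array.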

Additional observations from a re-analysis of the deposited data

How the results depend on the processing

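The rise of AT1G04560 with ABA kept its call in all 14 alternative fits, at 6.50 to 7.04 (limma, adjusted p between 8.8e-06 and 0.027), and no member was called in any mutant comparison. The number of probe sets called with ABA was 305, 2799 with the replicate number as a block and 33 with only the 4 wild-type arrays, and between 51 and 388 in fits without 1 array. For ahg1-1 and for ahg1-1 against ahg3-1, the block gave 3 and 1 calls in place of 0. With the replicate number as a block AT1G04560 rose by 6.80 (limma, adjusted p = 8.8e-06), and it changed no call of a member. Same-numbered arrays deviated from their group means together (r between 0.50 and 0.84 across probe sets in 6 pairs of groups), a hint from the data and not from the labels. With only the 4 wild-type arrays 1 RCI2/PMP3 gene and 7 seed maturation genes were called, AT4G30650 (3.71) and AT4G30660 (2.36) losing their calls (limma, adjusted p = 0.10 and 0.14).

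When 1 array was left out, the small differences of AT1G29520 and AT5G18970 changed sign in some fits, none of them called. AT1G29520 ran from -0.91 to 0.16 with ABA, from -0.11 to 0.37 for ahg1-1 and from -0.34 to 0.14 for ahg3-1. AT5G18970 ran from -0.41 to 0.58, from -0.34 to 0.18 and from -0.47 to 0.049 in the same order. AT1G04560 ran from 0.30 to 0.78 for ahg1-1 and from 0.01 to 0.48 for ahg3-1. Where a left-out array leaves 1 in its group, that array is assumed to vary like the other groups. The filter on dim probe sets removed AT1G29520.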
